A study of Mus musculus with 3 samples.

Results

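Olfactory receptor (OR) genes encode G protein-coupled receptors for odorants. They form the largest gene family of the mouse genome, lie in tandem clusters on many chromosomes, and mostly have a single coding exon. Each olfactory sensory neuron expresses a single OR allele, and in these neurons the other OR genes are kept silent in heterochromatin. 5-Hydroxymethylcytosine (5hmC) is made from 5-methylcytosine by the TET enzymes and is abundant in neurons, where it is known to collect in the bodies of transcribed genes. The data give the 5hmC level of these clusters in cerebellum, a tissue that does not use them for smell.

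The OR regions were taken as the autosomal 10 kb bins of the deposited table that overlap, by at least 1 bp, a protein-coding RefSeq gene of the mouse genome build GRCm38.p6 whose symbol starts with Olfr. The overlap rule itself uses no measured value. It found 1253 bins among 239486 autosomal bins and 264399 bins in all, and 1250 of them had a value in every library. The 1104 autosomal OR genes behind them lie on 16 chromosomes, and 1101 have at least 1 such bin. Genomic DNA of mouse cerebellum was profiled in 3 libraries. These were DDD-seq of cerebellum after chronic sleep deprivation, ACE-seq of normal control cerebellum and DDD-seq of normal control cerebellum. DDD-seq and ACE-seq both glycosylate 5hmC and then deaminate the DNA, so that protected cytosines are read as 5hmC. Per the labels, the tissue is cerebellum in each library, and the strain, age, sex and number of animals are not given in the sources used here. Each group has 1 library, so no p-value is given. An SE or SD over bins measures the scatter between bins of the same library and not between animals, and differences are between libraries, not conditions or methods. A level is the deposited fraction multiplied by 100, and the depth behind it is unknown. OR genes include many near-identical copies whose reads can be divided between copies, and single-gene values are uncertain for that reason. Several OR genes of a cluster share bins and neighbours and are not independent.

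Most OR genes are short, with a median model length of 949 bp, so a 10 kb bin holds a coding exon and mostly the DNA around it. The sequence at their starts was poor in CpG, the main site of 5hmC. RefSeq windows of 300 bases (GRCm38.p6, 250 before to 50 after the annotated start) were matched by symbol for 938 of the 1104 OR genes. They held a mean of 1.28 CpG, and 33.7% held none, against a mean of 12.8 CpG and 4.77% with none over 26081 other genes. GC content averaged 36.1% in OR windows and 54.3% in the others. In 72.5% of the OR windows the annotated start was a start codon, so most of them show DNA before the coding exon and not a transcription start. The windows below are those of the OR gene whose bin had the highest level in all 3 libraries (Olfr825), of the highest and the lowest OR gene of at least 2 bins (Olfr427, Olfr25), and of Etv1, a transcription factor gene of cerebellar granule cells, for contrast. They lie at chr10:130163275-130163574 on the minus strand, chr1:174099210-174099509 on the plus strand, chr9:38329242-38329541 on the plus strand and chr12:38779832-38780131 on the plus strand. Capitals mark CpG, of which the windows hold 1, 4, 1 and 12.
Olfr825: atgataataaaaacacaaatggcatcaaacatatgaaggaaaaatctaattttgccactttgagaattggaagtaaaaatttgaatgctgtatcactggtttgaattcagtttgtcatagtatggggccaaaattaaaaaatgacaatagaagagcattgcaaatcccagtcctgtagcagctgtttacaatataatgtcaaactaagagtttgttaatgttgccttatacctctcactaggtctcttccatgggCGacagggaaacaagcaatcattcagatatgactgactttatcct
Olfr427: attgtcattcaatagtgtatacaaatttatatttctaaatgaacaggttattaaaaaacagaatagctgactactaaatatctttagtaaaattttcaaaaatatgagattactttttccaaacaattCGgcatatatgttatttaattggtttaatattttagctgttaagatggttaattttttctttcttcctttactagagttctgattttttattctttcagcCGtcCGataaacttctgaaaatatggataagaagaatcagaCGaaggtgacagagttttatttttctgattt
Olfr25: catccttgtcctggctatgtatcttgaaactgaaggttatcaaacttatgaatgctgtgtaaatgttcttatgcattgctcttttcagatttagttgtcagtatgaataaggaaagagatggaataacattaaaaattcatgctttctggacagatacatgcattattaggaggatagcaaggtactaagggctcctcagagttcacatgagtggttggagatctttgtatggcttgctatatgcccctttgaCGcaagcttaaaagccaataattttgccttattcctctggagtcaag
Etv1: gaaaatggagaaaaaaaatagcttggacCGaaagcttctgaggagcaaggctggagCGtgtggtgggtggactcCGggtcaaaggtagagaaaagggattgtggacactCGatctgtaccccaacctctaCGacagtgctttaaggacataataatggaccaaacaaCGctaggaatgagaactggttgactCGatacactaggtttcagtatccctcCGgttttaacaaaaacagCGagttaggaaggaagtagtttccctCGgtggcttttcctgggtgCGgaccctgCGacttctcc
The letters TAATTA, a palindrome that many homeodomain proteins bind, were found in 18.8% of OR windows and in 4.83% of windows of other genes. CCCNNGGG, a palindrome like the site of the EBF factors, was found in 3.09% of OR windows and in 13.8% of the others. Within the OR windows, CCCNNGGG was in 1.32% of the 680 whose annotated start was a start codon and in 7.75% of the 258 others. TAATTA was in 18.8% and 18.6% of them. Both motifs read the same on either strand, and a match is only a match of letters. The shares were not adjusted for the lower GC content of OR windows, so they do not show enrichment or depletion of either motif beyond base content. The number of CpG in a gene's window had little relation to the level of its bins. Over 936 genes, the mean level in OR genes with 2 or more, 1 and 0 CpG was 1.08%, 1.09% and 1.06% in sleep-deprived cerebellum, 1.09%, 1.05% and 1.05% in the ACE-seq control and 1.11%, 1.10% and 1.06% in the DDD-seq control. CpG content of whole bins was not analysed here.

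OR bins carried low 5hmC in each library. Their mean level was 1.10% ± 0.49 in the sleep-deprived DDD-seq library, 1.07% ± 0.56 in the ACE-seq control and 1.10% ± 0.54 in the DDD-seq control (SD over 1250 bins). The other 238038 autosomal bins averaged 1.57%, 1.52% and 1.56% in the same libraries, so the OR minus other difference was -0.467, -0.448 and -0.460 percentage points. The OR level was 0.702, 0.705 and 0.705 times that of the rest. The gap was wider against bins of other protein-coding genes, which averaged 1.76%, 1.72% and 1.77%. OR bins were also below bins that hold no protein-coding gene, at 1.40%, 1.34% and 1.38%, with differences of -0.296, -0.272 and -0.282 points. The other large clustered chemoreceptor family of the nose was as low. The 677 bins of vomeronasal receptor genes (Vmn1r and Vmn2r), which encode pheromone receptors, averaged 1.04%, 1.03% and 1.02%.

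**Figure D1:**
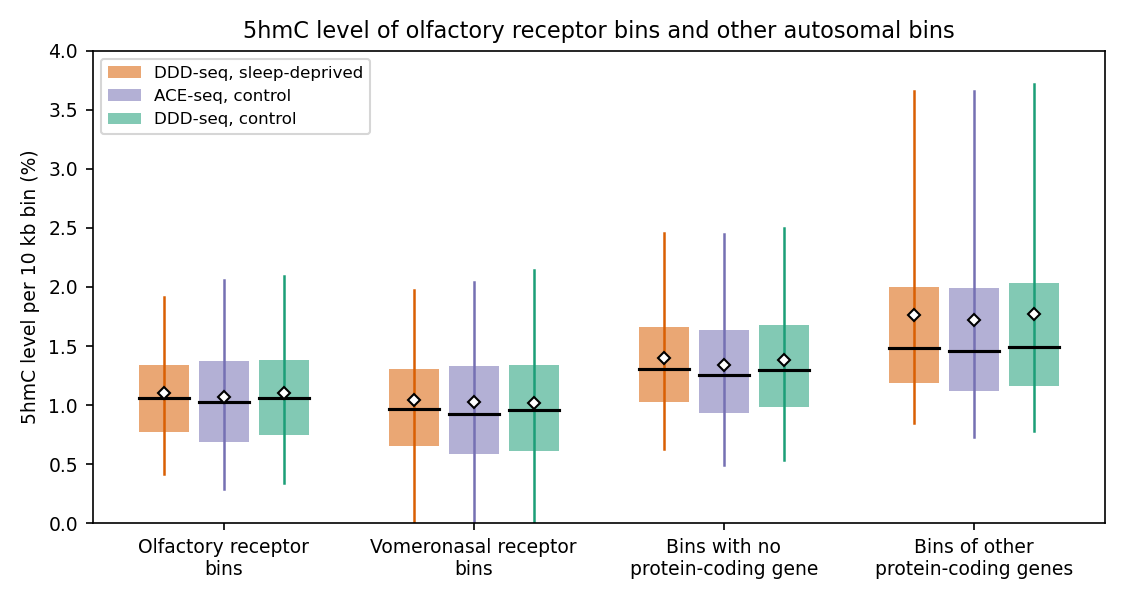
Level of 5hmC per 10 kb bin (y axis, percent) in olfactory receptor bins, vomeronasal receptor bins, autosomal bins with no protein-coding gene and bins of other protein-coding genes, for the 3 libraries. Boxes span the quartiles, black lines are medians, diamonds are means and whiskers run from the 5th to the 95th percentile of bins. The 3 libraries give OR bins nearly the same distribution, with means of 1.10%, 1.07% and 1.10%.

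The distribution of OR bins lay low as a whole and lacked the upper tail of genic DNA. Only 22.2% of OR bins in the sleep-deprived library, 26.9% in the ACE-seq control and 24.9% in the DDD-seq control exceeded the median of the other autosomal bins. In the lowest 10% of all autosomal bins fell 32.2%, 29.3% and 28.4% of them. A level of at least 2% was listed for 52 OR bins in the sleep-deprived library (4.16%, against 18.1% of all autosomal bins). The ACE-seq control had 74 such OR bins (5.92%, against 17.9%) and the DDD-seq control 73 (5.84%, against 19.2%). The top 1% of autosomal bins held 1 OR bin in each library, that of Olfr825. No OR bin exceeded 10%, whereas the other autosomal bins reached 66.7% in the sleep-deprived library and 100% in both controls.

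The low level was found on every chromosome with OR genes. OR bins were below the other bins of the same chromosome on 16 of 16 chromosomes in each library. The difference ranged from -0.56 to -0.27 points in the sleep-deprived library, from -0.59 to -0.20 in the ACE-seq control and from -0.70 to -0.27 in the DDD-seq control. Chromosome 2, with 316 OR bins, had OR levels of 1.12%, 1.08% and 1.10%, against 1.62%, 1.57% and 1.62% over its other bins. Chromosome 9, with 152 OR bins, had 1.04%, 1.02% and 0.99%, against 1.60%, 1.54% and 1.59%. Chromosome 6 had the highest OR levels in the sleep-deprived library and the ACE-seq control, at 1.31% and 1.33% over 30 bins, beside 1.23% in the DDD-seq control.

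OR bins separated by gaps of at most 1 Mb were joined into clusters, which are named here by chromosome and a letter in order along it. This gave 47 clusters, of which 26 had at least 10 bins and held 95.7% of the OR bins. Cluster means differed little. They ran from 0.966% to 1.37% in the sleep-deprived library, from 0.947% to 1.36% in the ACE-seq control and from 0.917% to 1.31% in the DDD-seq control, with an SD between clusters of 0.110, 0.117 and 0.101 points. All 26 lay below the mean of the other autosomal bins in each library. In the sleep-deprived library and the DDD-seq control all 26 also lay below bins with no protein-coding gene, and in the ACE-seq control 25 did, the exception being 6b.

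The largest cluster, 2b, spans 5080 kb (chromosome 2, bins 85330001 to 90410000) with 222 OR genes. Its 241 bins averaged 1.16% in the sleep-deprived library, 1.09% in the ACE-seq control and 1.10% in the DDD-seq control. Cluster 7e (chromosome 7, 102470001 to 105370000) has 126 OR genes, among them Olfr78, Olfr558, Olfr544 and Olfr545. These are class I receptors, the group shared with fish, which in the mouse form a single cluster interrupted by the beta-globin genes. Its 138 bins averaged 0.98%, 0.99% and 1.12% in the same order. Cluster 9b (chromosome 9, 37710001 to 40190000), with 95 genes, had 1.07%, 1.02% and 1.02%, and 19a (chromosome 19, 11820001 to 13920000), with 63 genes, had 1.13%, 1.02% and 1.10%. The class I cluster thus lay within the range of the others, which hold class II receptors.

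The highest mean over the 3 libraries was that of 6b (chromosome 6, 41770001 to 43240000), with 1.37%, 1.36% and 1.30% over 21 bins. It was followed by 1b (chromosome 1, 172950001 to 174450000), with 1.27%, 1.08% and 1.31% over 22 bins. Both are loose clusters, with 1.43 and 1.27 OR genes per 100 kb, against 4.37 in 2b and 4.34 in 7e. The lowest was 9a (chromosome 9, 18750001 to 20340000), with 0.966%, 1.01% and 0.917% over 44 bins. Next came 2a (chromosome 2, 36370001 to 37340000) with 0.98%, 1.03% and 0.98%, 7a (chromosome 7, 6430001 to 6580000) with 0.995%, 1.04% and 0.96%, and 17b (chromosome 17, 37080001 to 38340000) with 1.06%, 0.96% and 0.98%. The order of the 26 clusters was partly shared between libraries. Spearman's rho was 0.574 between the sleep-deprived library and the DDD-seq control, 0.465 between the ACE-seq and the DDD-seq control, and 0.606 between the sleep-deprived library and the ACE-seq control, over 26 clusters of unequal size.

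**Figure D2:**
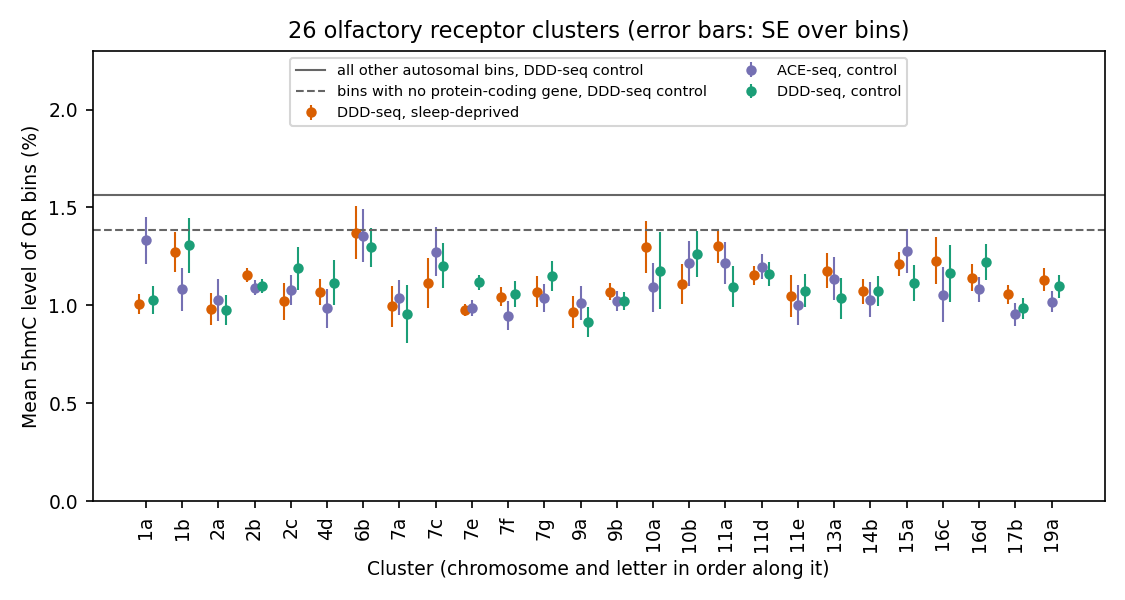
Mean 5hmC level of OR bins (y axis, percent) in the 26 clusters of at least 10 bins (x axis, chromosome and letter), with the SE over bins, for each library. The solid and dashed lines are the DDD-seq control means of all other autosomal bins (1.56%) and of bins with no protein-coding gene (1.38%), and all cluster means lie below the solid line.

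The other large clusters lay between these by the mean of the 3 libraries. On chromosome 7, 7f (106670001 to 108900000) had 1.05%, 0.947% and 1.06%, and 7g (140160001 to 140710000) had 1.07%, 1.04% and 1.15%. On chromosome 14, 14b (49890001 to 52500000) had 1.07%, 1.03% and 1.07%. Cluster 16d (chromosome 16, 58760001 to 59370000) had 1.14%, 1.08% and 1.22%, and 11e (chromosome 11, 73350001 to 74370000) had 1.05%, 1.003% and 1.08%. Cluster 10a (chromosome 10, 78490001 to 79040000; 15 bins) had 1.30%, 1.09% and 1.18%, and 13a (chromosome 13, 21070001 to 21710000; 13 bins) had 1.18%, 1.14% and 1.04%. The means of 4d, 11d and 15a were also within the ranges given above.

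The level stepped up at the ends of the clusters. Against the 1880 bins within 200 kb outside the cluster ends, OR bins differed by -0.303 points in sleep-deprived cerebellum, -0.294 points in the ACE-seq control and -0.324 points in the DDD-seq control. Of the 26 large clusters, 24 were below their own flanks in all 3 libraries. The exceptions were 7c (chromosome 7, 86260001 to 86700000) and 16c (chromosome 16, 19280001 to 19630000). Averaged over clusters, bins in the last 100 kb inside had 1.13% ± 0.02 in the sleep-deprived library, 1.10% ± 0.02 in the ACE-seq control and 1.14% ± 0.03 in the DDD-seq control (SE over 26 clusters). Bins in the first 100 kb outside had 1.32% ± 0.04, 1.33% ± 0.04 and 1.36% ± 0.05. Those between 100 and 200 kb outside, the highest class up to 500 kb, had 1.50% ± 0.05, 1.43% ± 0.06 and 1.49% ± 0.06.

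Much of this step went with the other genes that surround the clusters. Of the bins between 100 and 200 kb outside, 63.7% overlapped another protein-coding gene, against 5.92% of those in the last 100 kb inside. When bins with another protein-coding gene were left out on both sides, OR bins averaged 1.10% in the sleep-deprived library, against 1.21% over 776 flanking bins. The ACE-seq control had 1.07% against 1.16%, and the DDD-seq control 1.10% against 1.196%. These differences of -0.109, -0.0966 and -0.0956 points were smaller than those over all flanks. Of 25 large clusters with at least 5 such flanking bins, 13 were below them in all 3 libraries.

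**Figure D3:**
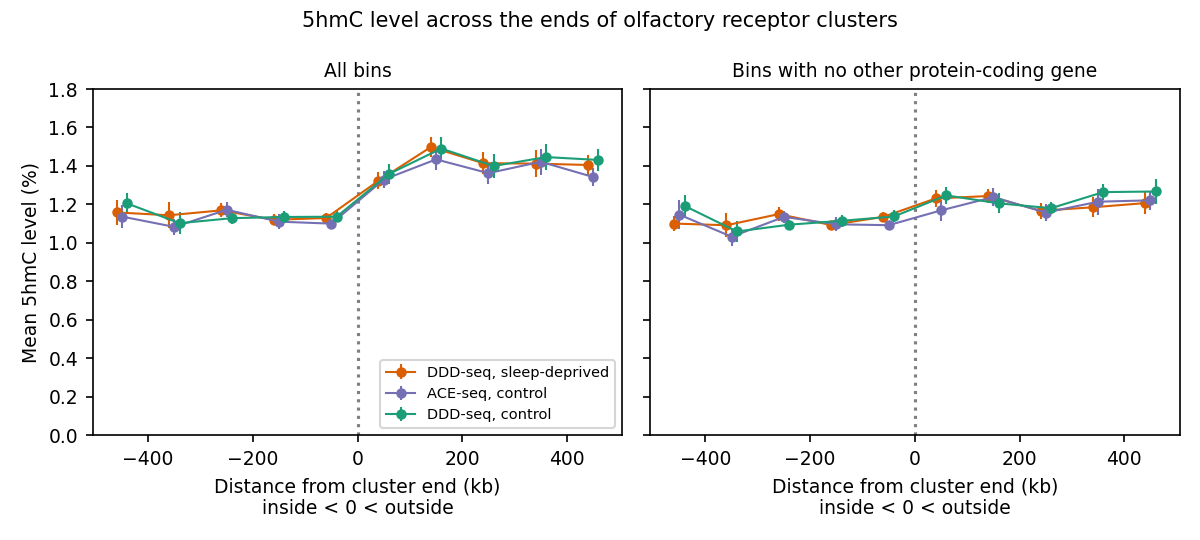
Mean 5hmC level over clusters (y axis, percent, with the SE over clusters) by distance from the end of the 26 large clusters (x axis, kb, negative inside), over all bins (left) and over bins with no other protein-coding gene (right). Outside the clusters only bins without an OR gene are used. The level steps up at the boundary in the left panel, and the step is smaller in the right panel.

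Within the clusters the OR genes themselves did not stand out. The 1695 bins between OR genes that hold no protein-coding gene averaged 1.08%, 1.07% and 1.08% in the sleep-deprived, ACE-seq control and DDD-seq control libraries, beside 1.10%, 1.07% and 1.10% for OR bins. The 57 bins with 2 OR genes averaged 1.04%, 1.11% and 1.08%, and the 1193 bins with 1 gene averaged 1.10%, 1.07% and 1.10%. OR genes with long transcript models had levels in the same range. The longest, Olfr183 on chromosome 16 (71199 bp), had 1.13% ± 0.17, 1.04% ± 0.13 and 0.99% ± 0.16 over 9 bins (SE over bins). Olfr1280 on chromosome 2 (60182 bp, 7 bins) had 1.11%, 1.65% and 0.90%, and Olfr687 on chromosome 7 (48745 bp, 6 bins) 1.09%, 1.02% and 0.95%.

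Other genes embedded in the clusters had higher levels on average. The 497 bins of such genes averaged 1.37% in the sleep-deprived library, 1.34% in the ACE-seq control and 1.37% in the DDD-seq control. Their medians were 1.23%, 1.18% and 1.22%. Of 146 other protein-coding genes of at least 2 bins that lie wholly inside a large cluster, 62 were above the mean of their cluster's OR bins in all 3 libraries, 20 were below it in all 3 and 64 were mixed. The 4 of them that reached 2% in every library are named after their values were seen. Hnrnpc, which encodes an RNA-binding protein of pre-mRNA, had 3.73%, 4.34% and 3.99% over 4 bins in cluster 14b, whose OR bins averaged 1.07%, 1.03% and 1.07%. Syt9, a synaptotagmin gene, had 2.82% ± 0.23, 2.85% ± 0.35 and 2.82% ± 0.26 over 18 bins in 7f, whose OR bins averaged 1.05%, 0.95% and 1.06%. Zfp91, a zinc finger protein gene, had levels between 2.68% and 3.08% over 4 bins in 19a, with an SE of 0.94, 1.10 and 1.26. Tcaf1, which encodes a TRP channel-associated factor, had 2.26% ± 0.37, 2.16% ± 0.32 and 2.76% ± 0.50 over 6 bins in 6b. In 7e, by contrast, the 48 bins of other genes averaged 1.12%, 0.92% and 1.01%, close to its OR bins.

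A single OR bin stood apart. The bin of Olfr825 (chromosome 10, 130160001 to 130170000; the gene is at 130162362 to 130163324) had 5.47% in the sleep-deprived library, 5.49% in the ACE-seq control and 5.80% in the DDD-seq control. It was the highest OR bin in each library, and the next highest had 4.50%, 4.55% and 3.27%. The 5 bins on each side had medians of 1.21%, 1.11% and 1.16% and maxima of 2.27%, 1.52% and 2.46%. No other protein-coding gene overlaps it. Further OR bins were at 2% or more in all 3 libraries at Olfr798 (2.69%, 2.11% and 2.33%), Olfr794 (2.32%, 2.17% and 2.52%), Olfr1270 (2.10%, 2.61% and 2.29%), Olfr1090 (2.13%, 2.24% and 2.34%) and Olfr23 (3.78%, 2.73% and 2.21%). With Olfr825 these are 6 of 1250 OR bins, or 0.48%, against 8.94% of all autosomal bins, and 3 of the 6 lie in cluster 10b (chromosome 10, 128980001 to 130220000). These bins were picked for their values, which are given as a description.

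**Figure D4:**
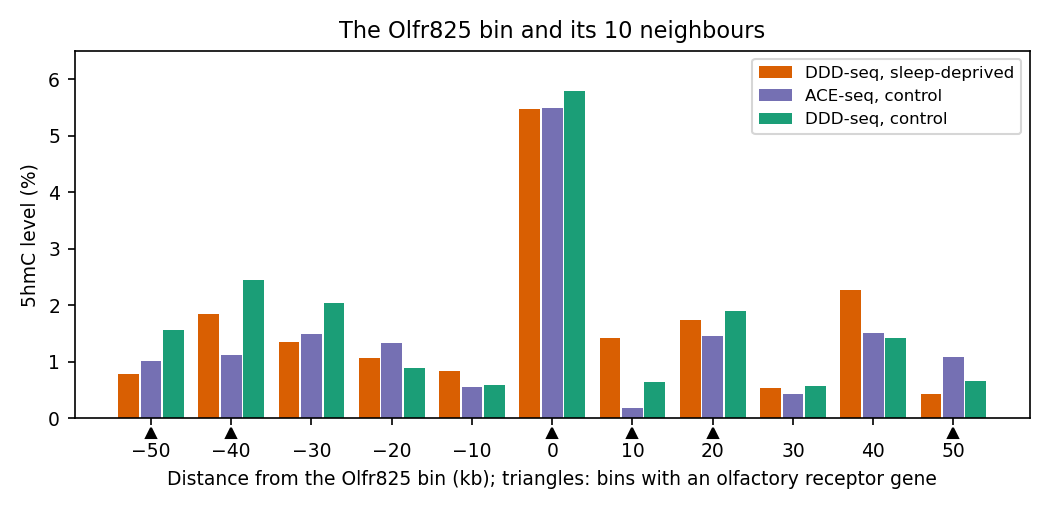
Level of 5hmC (y axis, percent) in the bin of Olfr825 and the 5 bins on each side (x axis, distance in kb) for the 3 libraries. Triangles mark bins with an OR gene. The central bin is between 5.47% and 5.80% in every library, and no neighbour exceeds 2.46%.

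The position of high and low OR bins was hardly shared between libraries. Across the 1250 OR bins, Spearman's rho was 0.0993 between the sleep-deprived library and the DDD-seq control, 0.136 between the ACE-seq and the DDD-seq control, and 0.0724 between the sleep-deprived library and the ACE-seq control. Over the other autosomal bins the same values were 0.523, 0.491 and 0.506, and over bins with no protein-coding gene 0.369, 0.335 and 0.349. Vomeronasal receptor bins were closer to OR bins in this, at 0.168, 0.210 and 0.143 over 677 bins. The bins of a library share its depth, which is unknown. Pearson's r over OR bins was 0.164, 0.188 and 0.165, and without the Olfr825 bin 0.109, 0.140 and 0.115. Means over windows of 100 kb with at least 5 OR bins did not bring the libraries much closer. Over 109 such windows rho was 0.123, 0.170 and 0.229, whereas over 12932 windows of bins with no protein-coding gene it was 0.708, 0.668 and 0.688, and over 23901 windows of other bins 0.836, 0.813 and 0.824.

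High levels were compared between libraries as well. Of the 73 OR bins at 2% or more in the DDD-seq control, 13 (17.8%) were also there in sleep-deprived cerebellum and 15 (20.5%) in the ACE-seq control. Their means were 1.42% in sleep-deprived cerebellum and 1.36% in the ACE-seq control, beside 2.38% in the DDD-seq control that chose them. Of the other autosomal bins at 2% or more in the DDD-seq control, 60.7% were also there in sleep-deprived cerebellum and 57.8% in the ACE-seq control. Among bins with no protein-coding gene these shares were 42.3% and 39.0%. Of 46 such vomeronasal receptor bins, 10.9% and 19.6% were. OR bins are at lower levels than other autosomal bins and bins with no protein-coding gene. The part of level or depth in the difference was not tested.

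**Figure D5:**
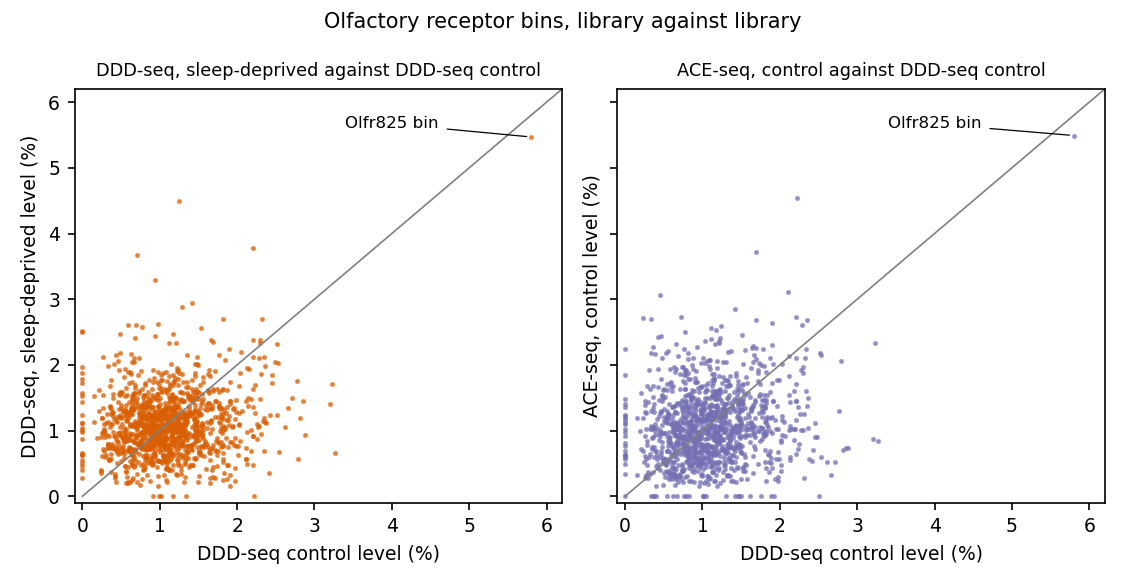
Level of 5hmC (percent) of the 1250 OR bins in the sleep-deprived DDD-seq library (left, y axis) and the ACE-seq control (right, y axis) against the DDD-seq control (x axis), 1 point per bin, with the line of equal levels. The points form a round cloud in both panels (rho 0.0993 and 0.136) with the Olfr825 bin alone at the upper right.

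A level of 0 was listed for 6 OR bins in the sleep-deprived library (0.48%, against 0.363% of all autosomal bins). It was listed for 25 in the ACE-seq control (2%, against 0.683%) and 25 in the DDD-seq control (2%, against 0.63%). The share in both controls was above that of bins with no protein-coding gene, at 0.971% and 0.895%. In the sleep-deprived library those bins had 0.496%, and OR bins were not above them. Each OR share was well below that of vomeronasal receptor bins, at 9.90% and 8.71% in the controls and 7.39% in the sleep-deprived library. Zeros rarely recurred at the same OR bins. Of 55 OR bins at 0 in any library (4.40%, against 1.19% of all autosomal bins), 54 were at 0 in a single library. The exception, the bin of Olfr1463 in 19a, was at 0 in the ACE-seq and DDD-seq controls and at 0.28% in the sleep-deprived library, and no OR bin was at 0 in all 3. Among the other autosomal bins, 377 of 2785 bins with a 0 had it in all 3 libraries, as had 25 of 105 vomeronasal receptor bins. Zeros were found in 6 of the 26 large clusters in the sleep-deprived library, in 10 in the ACE-seq control and in 14 in the DDD-seq control. The 3 OR bins that lacked a value in at least 1 library were those of Olfr1506 and Olfr1565 in 2b.

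At the level of genes, 1101 OR genes had a median of 1.06% in the sleep-deprived library, 1.02% in the ACE-seq control and 1.06% in the DDD-seq control, against 1.33%, 1.30% and 1.34% over 19400 other autosomal protein-coding genes. Above the median of all genes were 279, 322 and 301 OR genes. Of the OR genes, 928 have a single bin, and the 173 with at least 2 bins ranged from 0.208% to 2.45% in the sleep-deprived library, from 0.398% to 2.66% in the ACE-seq control and from 0.412% to 2.796% in the DDD-seq control. The highest by the mean of the 3 libraries was Olfr427 on chromosome 1, with 1.85% ± 0.14, 1.92% ± 0.42 and 2.796% ± 0.43 (SE over 2 bins). Olfr23 on chromosome 11 followed with 2.45% ± 1.33, 1.84% ± 0.89 and 1.996% ± 0.21, then Olfr239 with 1.71%, 2.66% and 1.41%. The others of the 10 highest were Olfr1270, Olfr1494, Olfr1387, Olfr1333, Olfr70, Olfr212 and Olfr177, with means over the libraries from 1.78% at Olfr1270 to 1.53% at Olfr177.

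The lowest OR gene of at least 2 bins was Olfr25 on chromosome 9, with 0.68% ± 0.11, 0.55% ± 0.17 and 0.60% ± 0.26. Olfr366 and Olfr77 had means of 0.66%, and Olfr594, Olfr622, Olfr353, Olfr69, Olfr891, Olfr119 and Olfr646 lay between 0.686% and 0.792%. Olfr594, Olfr622, Olfr69 and Olfr646 belong to 7e. These genes were chosen by level, and their values are a description.

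Most values of well-studied receptors lay within the range of the OR genes of at least 2 bins, although most of these receptors have a single bin. In the DDD-seq control, Olfr2 and Olfr160 were below the lower end of that range, 0.412%. Olfr78, a receptor for short-chain fatty acids that is also expressed in the carotid body, had 1.37% ± 0.24, 1.42% ± 0.10 and 1.31% ± 0.30 over 2 bins. Its neighbour Olfr558 had 1.18%, 0.81% and 0.58%. Olfr1507 (MOR28), which lies next to a much studied OR enhancer, had 1.05%, 1.70% and 1.22% over 2 bins. Olfr73, a eugenol receptor known as mOR-EG, had 0.70%, 0.79% and 1.05%, and Olfr16 (MOR23) had 1.42%, 0.61% and 0.81%. Olfr17 (P2), a model gene for axon targeting, had 1.09%, 1.34% and 0.83%, and Olfr2 (I7) had 0.73%, 0.68% and 0.38%. The bin of Olfr160 (M72) had 1.11% and 0.68% in the sleep-deprived library and the ACE-seq control and was listed at 0 in the DDD-seq control. Olfr544 had 0.71%, 0.94% and 0.94%, Olfr545 1.34%, 0.62% and 0.62%, and Olfr15 1.11%, 1.35% and 0.61%. No receptor of this list reached 2% in any library.

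Genes that act with the receptors in olfactory neurons were not low as a group. A list of 30 genes of odour transduction and OR regulation had a median of 1.43% in the sleep-deprived library, 1.39% in the ACE-seq control and 1.54% in the DDD-seq control, against 1.31%, 1.29% and 1.33% over all autosomal protein-coding genes. Of the 30, 17, 18 and 18 exceeded the median of all genes. Others were below it in each library, such as Cngb1 with 1.12%, 1.07% and 1.11% and Lhx2 with 1.12%, 1.18% and 1.05%. Kdm1a, a histone demethylase gene that is needed for OR choice and is widely expressed, had 2.64%, 3.15% and 2.90%. Gnal, which encodes the olfactory G protein, had 1.53%, 1.41% and 1.48%, and Adcy3, the odour-responsive adenylyl cyclase gene, had 1.42%, 1.53% and 1.58%. Of the 8 markers of mature olfactory sensory neurons, 3, 5 and 5 exceeded the median of all genes, and Omp, the olfactory marker protein gene, had 1.24%, 1.17% and 1.19%. Trace amine-associated receptors (Taar), the other odorant receptor family, form a single tandem cluster on chromosome 10 and were higher than OR genes. The median of 15 Taar genes was 1.53%, 1.97% and 1.49%, and Taar3 had 3.63%, 4.01% and 3.15% over 2 bins. Of cerebellar granule cell genes, Etv1 had 6.70%, 6.42% and 6.52% and Gabra6, a GABA-A receptor subunit gene of these cells, 4.14%, 2.87% and 2.99%. Other genes of that list were as low as OR genes, such as the zinc finger gene Zic1 with 0.93%, 1.002% and 0.92% and Neurod1, a neuronal transcription factor gene, with 1.25%, 0.92% and 1.06%. The median over its 15 genes was 1.57%, 1.69% and 1.66%, and 10, 11 and 10 of them exceeded the median of all genes.

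The sleep-deprived library hardly differed from the DDD-seq control over OR bins. The mean was 1.10% in both, and the mean difference, sleep-deprived minus control, came to -0.00214 ± 0.0189 points (SE over 1250 bins), with 617 bins higher and 633 lower. Over the other autosomal bins it was 0.00436 ± 0.00143 points. At least 1 point higher were 71 OR bins (5.68%, against 4.51% of all autosomal bins) and at least 1 point lower 80 (6.40%, against 4.48%). Both shares were above those of the whole table, but not particular to OR bins. Vomeronasal receptor bins had 7.83% higher and 7.53% lower, and bins with no protein-coding gene 5.01% and 4.89%. A bound of 0.5 points gave 248 higher (19.8%, against 16.7%) and 255 lower (20.4%, against 16.2%). A bound of 2 points gave 6 higher (0.48%, against 0.405%) and 4 lower (0.32%, against 0.433%). Of the 26 large clusters, 13 were higher and 13 lower. The class I cluster 7e was the only one whose difference exceeded 2 SE, at -0.14 ± 0.04 points, with 0.98% in sleep-deprived cerebellum and 1.12% in the DDD-seq control. The ACE-seq control, at 0.99%, was also below the DDD-seq control there, and both comparisons share that library. Cluster 11a (chromosome 11, 49110001 to 49570000) had the largest positive difference, 0.21 ± 0.11 points, and 2c (chromosome 2, 111230001 to 112160000) the largest negative one, -0.17 ± 0.14 points.

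Among the 173 OR genes of at least 2 bins, the largest positive differences in sleep-deprived cerebellum were at Olfr430 (1.83% against 0.79% in the DDD-seq control) and Olfr1428 (1.93% against 0.94%). Olfr1176, Olfr1188 and Olfr749 were higher by 0.98, 0.96 and 0.90 points. The largest negative differences were at Olfr1205 (0.62% against 1.73%) and Olfr352 (0.53% against 1.50%), and Olfr427, Olfr1487 and Olfr1249 differed by -0.95, -0.93 and -0.87 points. These are differences picked as extremes from genes of 2 bins each, and have no replicate check. In the ACE-seq control, Olfr430, Olfr1428, Olfr1176, Olfr1188 and Olfr749 had 0.76%, 1.10%, 1.04%, 0.97% and 0.61%.

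The ACE-seq control was slightly below the DDD-seq control over OR bins, as over the rest of the table. The mean difference, ACE-seq minus DDD-seq, came to -0.0324 ± 0.0197 points over OR bins (1.07% and 1.10%), with 597 higher and 652 lower, and -0.0449 ± 0.00161 points over the other autosomal bins. At least 1 point higher were 92 OR bins (7.36%, against 4.8% of all autosomal bins) and at least 1 point lower 94 (7.52%, against 6.06%). A bound of 0.5 points gave 245 higher (19.6%, against 16.6%) and 275 lower (22%, against 20.2%). A bound of 2 points gave 7 higher (0.56%, against 0.49%) and 10 lower (0.8%, against 0.625%). Of the large clusters, 11 were higher and 15 lower. The differences beyond 2 SE over bins were those of 1a (chromosome 1, 92470001 to 92630000; 0.31 ± 0.15 points), 1b (-0.22 ± 0.10) and 7e (-0.13 ± 0.06). These clusters were picked by that bound from all large ones, and single libraries cannot show that they differ by method. Olfr1033 on chromosome 2 had the largest positive difference among OR genes of at least 2 bins, with 1.98% in the ACE-seq control against 0.58% in the DDD-seq control. It was followed by Olfr239, Olfr869, Olfr44 and Olfr292, higher by 1.25, 1.06, 0.95 and 0.90 points. The largest negative difference was at Olfr1013 (0.955% against 2.01%), followed by Olfr352, Olfr1234, Olfr635 and Olfr427, with differences of -0.94, -0.94, -0.89 and -0.88 points. Olfr352 and Olfr427 were at the lower end of both comparisons, which share the DDD-seq control.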

How the data were processed

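The authors deposited a fraction between 0 and 1 for each consecutive 10 kb bin and library, with no counts or coverage, per the file headers and the values. The tools named are FastQC, Trimmomatic and Bismark, per the submitters' processing notes. Versions, cytosine context, coverage filter and averaging are not given in the sources used here. Both DDD-seq headers carry the word "all", so runs may have been pooled. Per the labels' protocols, ACE-seq DNA was described in the same words as DDD-seq DNA, the deaminase SsdAcat included. No unmodified DNA was analysed here, so levels include unconverted cytosine. The notes name hg19, but the last bin ended 1.33 to 212 kb after the last GRCm38.p6 gene on 21 of 21 chromosomes. The mean over genic bins exceeded that over gene-free bins by 0.376 points in the DDD-seq control, against 0.235 with genes shifted by 50 kb either way. Bins were therefore read as GRCm38.

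Fractions were multiplied by 100, and bins with a value in all 3 libraries were used. Gene levels are means over the bins a gene overlaps. The functions were tested on planted data. The members, gene lists and rules were chosen with earlier results of these data known. The rule for named genes took the 10 highest and lowest OR genes of at least 2 bins, the 5 largest differences each way, listed receptors (Olfr151, a transcribed pseudogene in the annotation, is not a member), clusters of at least 10 bins and OR bins above 10%. No test was run, since each group has 1 library. Alternatives included zeros left out, a 5 kb overlap, medians, equal weight per cluster and other gaps and flanks. Python 3.11.15, numpy 2.4.6, pandas 2.3.3 and matplotlib 3.10.9 were used.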

Additional observations from a re-analysis of the deposited data

How the results depend on the processing

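No paired analysis was possible because each group has 1 library. Alternatives were compared with the main value by the SD between the 26 large clusters. Of 120 alternative values, 96 stayed within it (counts within 1.5 times, shares of zeros within their binomial interval), 23 moved and 1 changed sign. Leaving out OR bins above 10% could change no value, as no OR bin was above 10%, and those values count among the 96. The bound was wide for the difference from flanks, with an SD of 0.208, 0.214 and 0.252 points in the sleep-deprived, ACE-seq control and DDD-seq control libraries. Without bins of other genes that difference was -0.109, -0.0966 and -0.0956 points, against -0.303, -0.294 and -0.324, and still counted as within. OR bins stayed below the other bins throughout. Medians gave differences of -0.324, -0.324 and -0.326 points in the sleep-deprived, ACE-seq control and DDD-seq control libraries, gene-free bins as the other set -0.296, -0.272 and -0.282, and bins of other genes -0.664, -0.651 and -0.666. With an overlap of at least 5 kb, 95 OR bins were left and their flanks then included other OR bins. The difference from flanks then became -0.0157 points in the sleep-deprived library and turned to 0.0446 in the ACE-seq control. At that overlap the ACE-seq level was 1.21% and its difference from other bins -0.302 points. The share at 0 in the sleep-deprived library was 0%, the sleep-deprived minus control difference 0.172 points and the ACE-seq minus DDD-seq difference 0.210 points. With the bound at 0.5 points, sleep-deprived minus control passed it upwards at 248 OR bins (19.8%, against 16.7% of all autosomal bins). Downwards, 255 OR bins passed it (20.4%, against 16.2%). For ACE-seq minus DDD-seq the counts were 245 upwards (19.6%, against 16.6%) and 275 downwards (22%, against 20.2%). A bound of 2 points gave 6, 4, 7 and 10 in the same order. These are 0.48%, 0.32%, 0.56% and 0.8%, against 0.405%, 0.433%, 0.49% and 0.625% of all autosomal bins. Leaving out cluster 7e, the Olfr825 bin, or other bins above 10% was chosen after seeing the data and moved no value beyond that SD; without 7e the mean of sleep-deprived minus control was 0.0153 points. Unknown depth limits every single-bin value.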

Other observations

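Pseudogenes of the family had similar mean levels. The 250 autosomal bins that overlap an OR pseudogene and no intact OR gene averaged 1.07% in the sleep-deprived library, 1.11% in the ACE-seq control and 1.08% in the DDD-seq control. Their maxima were 6.96%, 7.67% and 7.76%, above the Olfr825 bin in each library. The 6 protein-coding OR genes on chromosome X, outside the autosomal rule, covered 7 bins with means of 1.32%, 1.28% and 1.65%, beside 1.47%, 1.44% and 1.46% over the other bins of that chromosome. The 21 OR bins that also overlap another protein-coding gene averaged 1.204%, 1.34% and 1.25%.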
